A study of Homo sapiens with 10 samples.

Results

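Imprinted genes are genes of which mainly 1 parental copy is transcribed. Transcripts of 36 imprinted genes were followed in the human multiple myeloma line MM.1S after knockdown of HDAC3, a histone deacetylase, or of DNMT1, the maintenance DNA methyltransferase. The members came from a list of names, chosen with earlier results of these data known. Each was read by 1 probe set of an Affymetrix array: of the probe sets annotated to that symbol alone, the one with the highest mean over the 10 arrays. This gave values for 30 of the 36 genes, among 19775 genes measured in all. H19, IGF2, SNURF and ZIM2 were represented only by probe sets annotated to several symbols, and SLC22A18 and RTL1 had no probe set annotated to them, so these 6 were not analysed here.

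The cells were infected with lentivirus carrying a short hairpin RNA and RNA was taken after 48 h. The 5 groups were a hairpin against luciferase (shLuc, the control), 2 hairpins against HDAC3 (shHDAC3#1 and shHDAC3#2) and 2 against DNMT1 (shDNMT1#1 and shDNMT1#2), with n = 2 arrays per group. Every group was thus a transduced population of the same line, and no uninfected cells were used here. The labels do not say whether replicates came from separate cultures, so the spread that p-values rest on is that of arrays and could be technical only. All comparisons with shLuc share the same 2 control arrays. In the labels both are marked as controls for shHDAC3 alone. The sources used here do not say that the DNMT1 arrays shared an infection or a hybridization with the control, so for DNMT1 knockdown against shLuc, and against HDAC3 knockdown, an effect of the occasion and that of the hairpins cannot be told apart.

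One copy of an imprinted gene carries DNA methylation, laid down in the egg or sperm at an imprinting control region, and this mark sets which copy is transcribed. DNMT1, brought to newly replicated DNA by UHRF1, copies the mark at each cell division, and zinc finger proteins such as ZFP57 and ZNF445 with TRIM28 protect it in the early embryo. Arrays of this kind read the summed RNA of both copies and cannot tell them apart. In bulk RNA, fewer cells of a kind and less RNA per cell cannot be told apart either.

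The sequences around the transcription starts of members whose RNA fell are shown because such marks sit on CG dinucleotides. The RefSeq table for GRCh38.p14 held windows of 300 bases, 250 before and 50 after each annotated start, for 22 of the 30 measured members. Of the 8 members called lower in a knockdown, 6 had a window. Below are 5 windows of 4 of these genes, with every CG dinucleotide in capitals. The upper MEST window is the one of that gene with the most CG, and the lower one is another start of the same gene.
MEST, chr7:130491835-130492134, plus strand: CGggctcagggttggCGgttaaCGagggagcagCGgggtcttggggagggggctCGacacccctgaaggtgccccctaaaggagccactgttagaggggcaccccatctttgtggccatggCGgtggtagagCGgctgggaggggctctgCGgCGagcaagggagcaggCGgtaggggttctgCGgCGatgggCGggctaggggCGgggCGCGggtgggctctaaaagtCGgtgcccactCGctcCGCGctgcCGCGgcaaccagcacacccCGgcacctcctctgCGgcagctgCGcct
MEST, chr7:130485925-130486224, plus strand: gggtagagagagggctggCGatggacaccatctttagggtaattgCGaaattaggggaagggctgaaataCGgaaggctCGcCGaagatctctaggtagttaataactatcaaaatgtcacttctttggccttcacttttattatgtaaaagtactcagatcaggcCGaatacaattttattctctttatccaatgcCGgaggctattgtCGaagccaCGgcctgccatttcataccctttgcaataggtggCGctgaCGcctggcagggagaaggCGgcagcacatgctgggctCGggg
ZDBF2, chr2:206274760-206275059, plus strand: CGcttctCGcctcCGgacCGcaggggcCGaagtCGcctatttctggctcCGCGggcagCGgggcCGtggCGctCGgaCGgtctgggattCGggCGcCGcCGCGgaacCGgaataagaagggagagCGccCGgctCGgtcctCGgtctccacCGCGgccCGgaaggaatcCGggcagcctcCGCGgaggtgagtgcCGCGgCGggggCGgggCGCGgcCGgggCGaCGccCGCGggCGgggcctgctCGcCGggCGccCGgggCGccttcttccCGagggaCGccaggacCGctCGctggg
IGF2R, chr6:159968832-159969131, plus strand: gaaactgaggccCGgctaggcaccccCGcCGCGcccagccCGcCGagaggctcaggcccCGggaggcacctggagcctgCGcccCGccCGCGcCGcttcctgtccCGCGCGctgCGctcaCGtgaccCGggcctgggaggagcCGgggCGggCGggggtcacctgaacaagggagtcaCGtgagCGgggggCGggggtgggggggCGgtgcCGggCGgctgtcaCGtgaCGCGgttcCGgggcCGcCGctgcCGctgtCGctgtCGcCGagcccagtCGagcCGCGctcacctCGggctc
GNAS, chr20:58888930-58889229, plus strand: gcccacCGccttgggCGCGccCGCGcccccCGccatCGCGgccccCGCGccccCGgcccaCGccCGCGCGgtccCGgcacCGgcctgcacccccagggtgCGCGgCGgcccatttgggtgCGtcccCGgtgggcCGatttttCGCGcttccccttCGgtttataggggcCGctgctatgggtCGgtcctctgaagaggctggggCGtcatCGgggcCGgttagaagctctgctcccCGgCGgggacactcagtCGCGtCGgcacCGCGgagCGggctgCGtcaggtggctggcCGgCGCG

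The upper MEST window held 25 CG dinucleotides and the lower one 13. The ZDBF2 window held 50, that of IGF2R 41 and that of GNAS 43. Except for the lower MEST window, each was the window of its gene with the most CG. The other ZDBF2 window held 18, and the others of GNAS held 10 to 34. The median over all 35116 windows in the table was 14, and the median over the 53 windows of measured members was 18. For each gene the window with the most CG was then taken: the members called lower that had a window reached 25 to 50, a minimum that 35.6% of all genes with a window also reached. The median of these highest counts was 16 over all genes and 28 over measured members. A highest count can only grow with the number of windows of a gene. Members had 53 windows for 22 genes, and the table held 35116 for 27305 genes. The part of this in the higher counts of members was not tested. The letters TGCCGC, the core of the motif bound by ZFP57 when its CG is methylated, were searched on both strands. They occurred in 22 of the 53 member windows (41.5%) and in 16.7% of all windows. In the printed windows they occurred 3 times in the upper MEST window, once each in the lower MEST window, ZDBF2 and IGF2R, and not in the GNAS window. These are counts of letters, and no methylation or binding was measured here. Windows of 1 gene can overlap, as those of MEG3 do, so 1 site can be counted more than once. The motif itself holds a CG, and member windows held more CG than all windows (median 18 against 14). The part of either in the motif shares was not tested.

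Members were first split by their signal in the control. RMA values carry no call of detection, so the 95th percentile of 82 olfactory receptor genes in shLuc, a log2 signal of 6.78, served as the background level. In shLuc 13 of 30 members lay above it (GNAS, UBE3A, PEG10, MEG3, MEST, OSBPL5, KCNQ1, SGCE, IGF2R, L3MBTL1, BLCAP, PHLDA2 and ZDBF2), and 17 did not. Of all genes, 8244 (41.7%) lay above it. GNAS was at a log2 signal of 11.55 and PEG10 at 8.47, both far above that level, whereas ZDBF2 was at 6.79, only 0.01 above it. ZDBF2 was therefore just inside, and NLRP2 (0.21 below) and KCNQ1OT1 (0.29 below) were the closest outside. In the second shLuc array alone ZDBF2 was at 6.55.

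**Figure D1:**
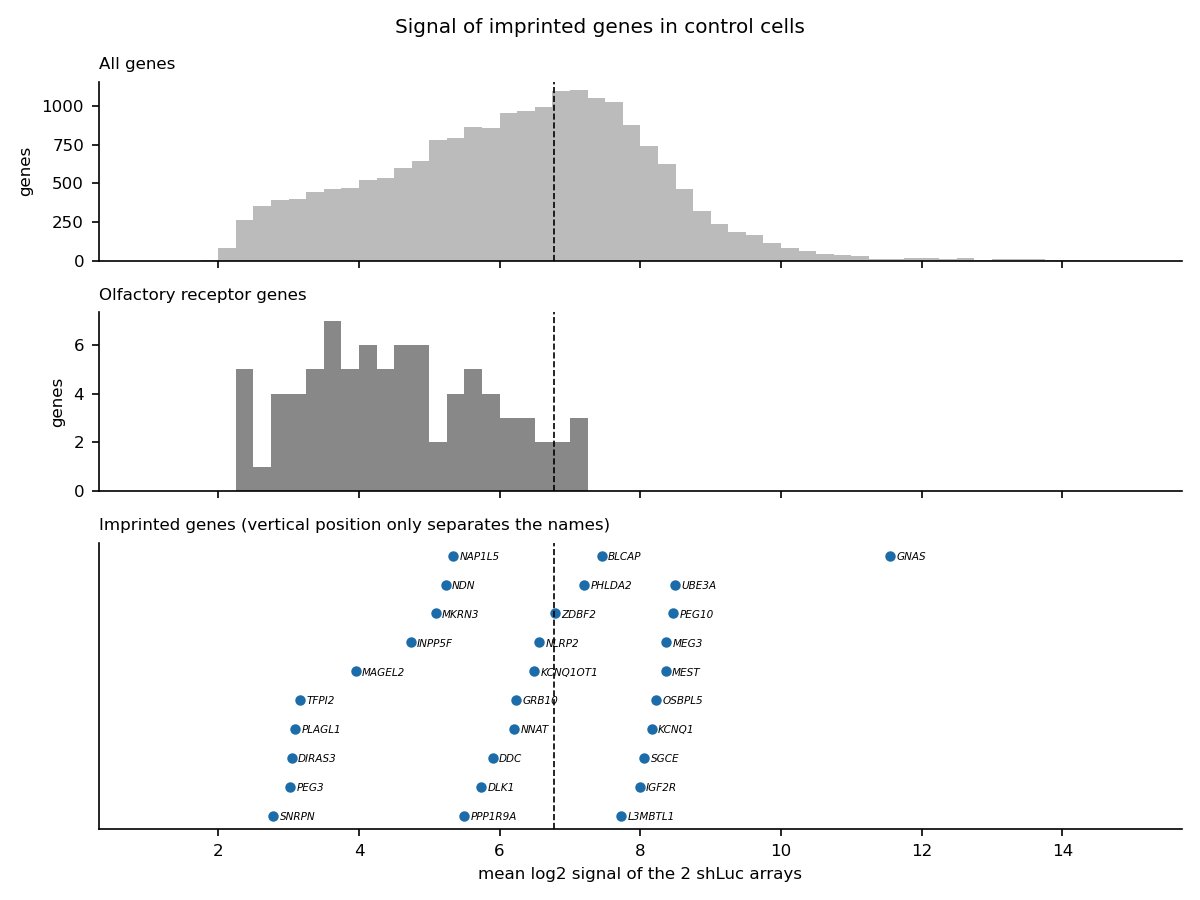
Mean log2 signal of each of the 30 measured imprinted genes in the 2 shLuc arrays, beside the background level of 6.78 taken from olfactory receptor genes. GNAS stands highest at 11.55, 13 members lie above the line, and ZDBF2 at 6.79 sits on it.

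A signal above this level did not by itself show expression. COL1A1, a collagen of stromal cells, was at 8.45, the stromal receptor PDGFRB at 7.91 and the epithelial keratin KRT8 at 7.21 in shLuc. Of myeloma and plasma cell markers, 8 of 9 were above background, CD38 at 5.90 being the exception, while 0 of 6 T and NK cell markers and 0 of 5 measured myeloid markers were. Stromal markers were above it in 3 of 6 cases, epithelial in 1 of 4 and endothelial in 1 of 3. The summed linear signal of the stromal list was 752 to 812 in shLuc and 788 to 870 in the hairpin arrays, and that of the myeloma list was 16440 to 17160 and 11440 to 15030. The part of these shifts in the changes of members was not tested.

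The targets checked the labels. In its own knockdown HDAC3 mRNA was at 44.2% of shLuc (-1.18 ± 0.16 SE, log2) and DNMT1 mRNA at 19.1% (-2.39 ± 0.10). DNMT1 mRNA also fell in HDAC3 knockdown, to 52.7% (-0.92 ± 0.10), so both arms had less DNMT1 transcript than shLuc. That mean joins unlike hairpins, with DNMT1 mRNA at 43.5% of shLuc with shHDAC3#1 (-1.2) and 63.8% with shHDAC3#2 (-0.65). The difference of 0.55 ± 0.12 between them was called (limma adjusted p = 0.00271). HDAC3 mRNA in turn was called lower with shDNMT1#2, at 65.8% of shLuc (-0.60 ± 0.18, limma adjusted p = 0.0186), but not with shDNMT1#1, at 91.7% (adjusted p = 0.728), and the DNMT1 mean was -0.36 ± 0.16 (adjusted p = 0.106). Changes here and below are differences of RMA log2 signals tested with limma over all 19775 genes; a gene was called at a Benjamini-Hochberg adjusted p under 0.05, and a knockdown is the mean of its hairpins (n = 4) against shLuc (n = 2). The SD of log2 values over genes was 1.90 and 1.88 in the shLuc arrays and 1.77 to 1.86 in the others.

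Of the 30 measured members, 8 were called in HDAC3 knockdown, 7 lower and 1 higher, where 19.2% of all genes were called (15.3% lower, 3.96% higher). PEG10, SGCE, MEST, IGF2R, GNAS, ZDBF2 and UBE3A fell and MEG3 rose. In DNMT1 knockdown 7 were called, 6 lower and 1 higher, where 20.2% of all genes were called (13.5% lower, 6.66% higher). PEG10, SGCE, ZDBF2, BLCAP, UBE3A and GNAS fell and DDC rose. These shares of members, 26.7% and 23.3%, lay near the background shares.

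By level in shLuc, 8 of the 13 members above background (61.5%) were called in HDAC3 knockdown, against 34.7% of all genes above background, and 6 of 13 (46.2%) in DNMT1 knockdown, against 33.0%. Of the 17 members not above background, limma called 0 in HDAC3 knockdown, with 2 at an unadjusted p under 0.05, against 8.16% of all such genes called. In DNMT1 knockdown it called 1 of 17, against 11.04%. The median log2 change of the members above background was -0.23 in HDAC3 and -0.25 in DNMT1 knockdown, and that of all genes above background was -0.05 and -0.02. This split used shLuc, which every change shares, and so favours genes that fell: ZDBF2 passed it in shLuc only, with a mean of 6.47 over all 10 arrays. Split by the mean over the 10 arrays instead, a choice made after the data were seen, 12 members passed, of which 7 were called in HDAC3 (58.3%, against 32.2% of all such genes) and 5 in DNMT1 knockdown (41.7%, against 31.2%). Their median changes were then -0.165 and -0.24, beside -0.0018 and 0.015 for all such genes. No test was made of these shares, and the members were chosen with earlier results of these data known. The median of the 30 members was 0.08 and 0.04, beside 0.05 and 0.07 for all genes.

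By hairpin, shHDAC3#1 called 7 members (4 lower, 3 higher), where 24.4% of all genes were called (16.6% lower, 7.83% higher). With shHDAC3#2 4 were called, all lower, where 10.9% of all genes were (9.54% lower, 1.31% higher). The hairpin shDNMT1#1 called 2, both lower, where 8.15% of all genes were called (6.81% lower, 1.34% higher). With shDNMT1#2 9 were called (6 lower, 3 higher), where 26.8% of all genes were (15.2% lower, 11.6% higher). PEG10 was the one member called with all 4 hairpins. SGCE was called with 3 of them, all but shDNMT1#1.

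**Figure D2:**
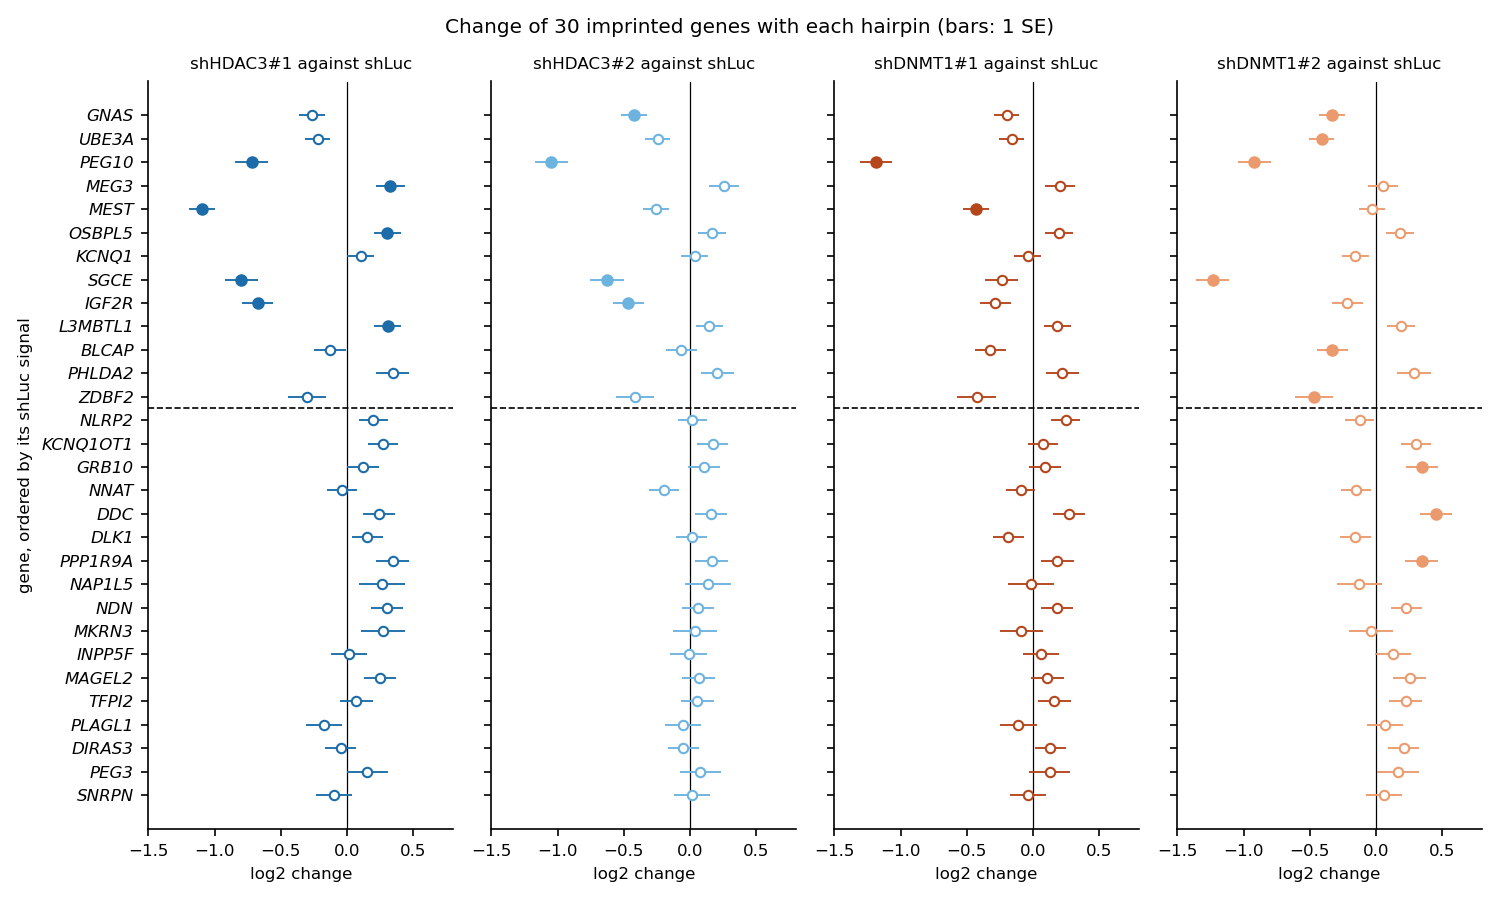
Log2 change against shLuc of the members for each of the 4 hairpins, with bars of 1 limma SE, filled points for called genes and a dashed line between members above and not above background. PEG10 lies between -1.19 and -0.72 with every hairpin, while MEST ranges from -1.09 with shHDAC3#1 to -0.03 with shDNMT1#2.

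The largest decrease shared by both knockdowns was that of PEG10, a paternally expressed gene derived from a retrotransposon and needed for the placenta. Its log2 signals were 8.63 and 8.30 in shLuc, 7.64 and 7.85 in shHDAC3#1, 7.44 and 7.39 in shHDAC3#2, 7.44 and 7.12 in shDNMT1#1, and 7.52 and 7.57 in shDNMT1#2. All 8 knockdown arrays lay below both control arrays. In HDAC3 knockdown PEG10 fell to 54.2% of control (log2 change -0.88 ± 0.11 SE, limma adjusted p = 3.15e-06) and to 48.2% in DNMT1 knockdown (-1.05 ± 0.11, adjusted p = 4.08e-07). The change was -0.72 with shHDAC3#1, -1.05 with shHDAC3#2, -1.19 with shDNMT1#1 and -0.92 with shDNMT1#2. Differences between hairpins of 1 target, and between the knockdowns (-0.17), were not called. A second PEG10 probe set, dimmer at a mean of 5.98, changed by -0.55 and -0.71 in the knockdowns. In shLuc that probe set was at 6.48, below the background level.

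SGCE encodes epsilon-sarcoglycan, a membrane protein of the dystrophin-associated complex, and lies next to PEG10 on chromosome 7 with no protein-coding gene between them in the RefSeq table. It too is paternally expressed. SGCE read, on the log2 scale, 8.21 and 7.90 in shLuc, 7.15 and 7.36 in shHDAC3#1, 7.36 and 7.50 in shHDAC3#2, 7.98 and 7.66 in shDNMT1#1, and 6.91 and 6.74 in shDNMT1#2. Only the shDNMT1#1 arrays overlapped the control, and the shDNMT1#2 arrays were lowest.

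SGCE fell in both knockdowns, by -0.71 ± 0.11 SE with HDAC3 (limma adjusted p = 5.68e-05) and -0.74 ± 0.11 with DNMT1 (adjusted p = 4.22e-05). The DNMT1 mean joins unlike hairpins: the change was -0.24 with shDNMT1#1 (adjusted p = 0.283) and -1.23 with shDNMT1#2 (adjusted p = 2.49e-07). The difference of -0.996 ± 0.126 between them was called (adjusted p = 8.77e-06). The neighbours thus differed with shDNMT1#1, where PEG10 was at -1.19 and SGCE at -0.24; the difference between the genes was not tested. PPP1R9A, a neuronal actin-binding protein and the next coding gene on the other side of PEG10, was dim at 5.50 in shLuc. It was called only with shDNMT1#2, higher (0.34 ± 0.13, adjusted p = 0.0471), a call that held in 3 of 10 fits without 1 array. Its probe set can cross-hybridize, and the others of the gene changed by 0.10, 0.22 and -0.26 with that hairpin. The call was lost in 13 of 17 alternatives, the mean of all probe sets among them. TFPI2, a protease inhibitor gene 5 protein-coding genes away, was at 3.17 in shLuc and never called.

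**Figure D3:**
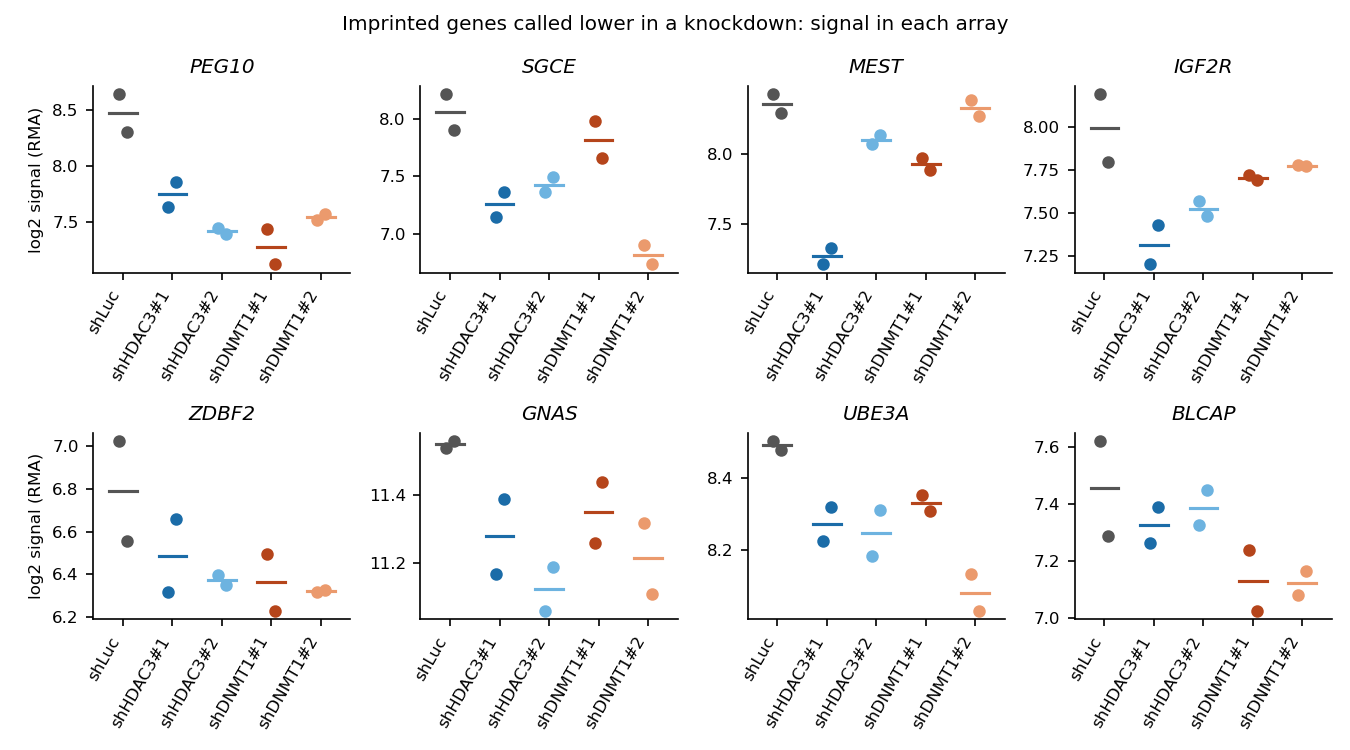
Log2 signal in each of the 10 arrays, by group, for the 8 members called lower in a knockdown; points are arrays, lines are group means, and each panel has its own axis. The 8 knockdown arrays of PEG10 lie at 7.12 to 7.85, below both shLuc arrays, and MEST is lowest in shHDAC3#1.

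MEST, a paternally expressed member of the alpha/beta hydrolase family on chromosome 7 and the gene of the first pair of printed windows, was the member called as different between the hairpins of both targets. Its log2 signals were 8.43 and 8.30 in shLuc, 7.21 and 7.33 in shHDAC3#1, 8.07 and 8.14 in shHDAC3#2, 7.97 and 7.88 in shDNMT1#1, and 8.39 and 8.27 in shDNMT1#2. The shHDAC3#1 arrays stood well below all others, and the shDNMT1#2 arrays overlapped the control.

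With shHDAC3#1 MEST fell by -1.09 ± 0.10 SE (limma adjusted p = 4.21e-08), and with shHDAC3#2 the change was -0.26 (adjusted p = 0.113). The difference between these hairpins, 0.84 ± 0.10, was called (adjusted p = 2.17e-06), the 1 member so called, where 12.6% of all genes were (8.85% higher in shHDAC3#2, 3.75% lower). MEST fell with shDNMT1#1 (-0.43, adjusted p = 0.00617), and its change with shDNMT1#2 was -0.03 (adjusted p = 0.834); their difference of 0.40 ± 0.10 was called (adjusted p = 0.00795). The shDNMT1#1 call was lost without the first shLuc array (adjusted p = 0.132) or the second shDNMT1#1 array (adjusted p = 0.0615), and the difference between the DNMT1 hairpins without the first shDNMT1#2 array (adjusted p = 0.102). The HDAC3 mean was -0.68 ± 0.08 (adjusted p = 5.02e-06) and the DNMT1 mean -0.23 ± 0.08 (adjusted p = 0.0567). Both means join unlike hairpins. With the spread between hairpins counted as error, through a random block, limma did not call the HDAC3 mean (adjusted p = 0.318). MEST has a single probe set here. ACTB read higher with its 3' than its 5' probe set, a gap that widens as RNA degrades, by a log2 difference of 0.98 and 1.02 in the shHDAC3#1 arrays and 0.63 to 0.81 elsewhere; the part of this gap in the shHDAC3#1 values was not tested.

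Between the knockdowns 2 of 30 members were called, both higher in DNMT1 than in HDAC3 knockdown, where 9.59% of all genes were called (6% higher, 3.59% lower). These were MEST (0.44 ± 0.07 SE, limma adjusted p = 0.000145) and IGF2R (0.32 ± 0.08, adjusted p = 0.0153). Neither was called with the spread between hairpins counted as error, through a random block (adjusted p = 0.845 and 0.797). IGF2R, the mannose 6-phosphate receptor that carries lysosomal enzymes and clears IGF2, is imprinted in mouse and in only some people. The arrays read 8.19 and 7.80 in shLuc, 7.20 and 7.43 in shHDAC3#1, 7.57 and 7.48 in shHDAC3#2, 7.72 and 7.69 in shDNMT1#1, and 7.78 and 7.77 in shDNMT1#2. All knockdown arrays lay below both control arrays, the DNMT1 arrays by little.

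IGF2R fell in HDAC3 knockdown (-0.57 ± 0.10 SE, limma adjusted p = 0.000289), and both hairpins were called (-0.68 and -0.47). In DNMT1 knockdown its change was -0.25 ± 0.10 (adjusted p = 0.0847). The HDAC3 change was -0.38 without the first shLuc array (adjusted p = 0.0527). A second bright probe set changed by -0.69 and -0.28, and the last, near the bottom of the range at a mean of 3.25, by 0.13 and 0.04. Both bright sets are of a kind that can cross-hybridize. The difference between the knockdowns was not called in 4 of 10 fits that left out 1 array, those without shHDAC3#1 replicate 1, shHDAC3#2 replicate 2 or either shDNMT1#2 array (0.26 to 0.32, adjusted p = 0.0546 to 0.103), and it was -0.09 in the last probe set.

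ZDBF2, a paternally expressed zinc finger gene on chromosome 2 with the window richest in CG of those printed, was measured close to background. ZDBF2 read 7.03 and 6.55 in shLuc, 6.32 and 6.66 in shHDAC3#1, 6.40 and 6.35 in shHDAC3#2, 6.50 and 6.23 in shDNMT1#1, and 6.32 and 6.33 in shDNMT1#2. The control arrays differed from each other by as much as the groups did, and 1 shHDAC3#1 array lay between them. ZDBF2 was called lower in HDAC3 knockdown (-0.36 ± 0.12 SE, limma adjusted p = 0.0488) and in DNMT1 knockdown (-0.45 ± 0.12, adjusted p = 0.0143). By hairpin it was called only with shDNMT1#2 (-0.47, adjusted p = 0.0205). The changes were -0.12 (adjusted p = 0.754) and -0.21 (adjusted p = 0.511) without the first shLuc array.

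GNAS, on chromosome 20, encodes the stimulatory G protein alpha subunit and, from other starts, imprinted transcripts such as XLas and NESP55. The log2 signals of GNAS were 11.54 and 11.56 in shLuc, 11.17 and 11.39 in shHDAC3#1, 11.06 and 11.19 in shHDAC3#2, 11.26 and 11.44 in shDNMT1#1, and 11.32 and 11.11 in shDNMT1#2. All 8 knockdown arrays lay below both control arrays. In HDAC3 knockdown GNAS fell to 78.8% of control (-0.34 ± 0.08 SE, limma adjusted p = 0.00538) and to 83.1% in DNMT1 knockdown (-0.27 ± 0.08, adjusted p = 0.0293). It was called with shHDAC3#2 (-0.42, adjusted p = 0.00493) and shDNMT1#2 (-0.33, adjusted p = 0.015). Without the first shLuc array the adjusted p was 0.106 and 0.248, and without the second 0.061 and 0.138.

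The gene had 12 probe sets, which need not read the same transcripts. The 6 brightest, all of a kind that can cross-hybridize, changed by -0.34 to -0.29 in HDAC3 and -0.30 to -0.20 in DNMT1 knockdown. The next in brightness, at a mean of 8.19, changed by 0.19 and 0.07. The one after it, at a mean of 7.32 and chosen after its values were seen, changed by -0.33 and -0.68 with the HDAC3 hairpins, and by -1.05 with shDNMT1#1 but 0.03 with shDNMT1#2.

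**Figure D4:**
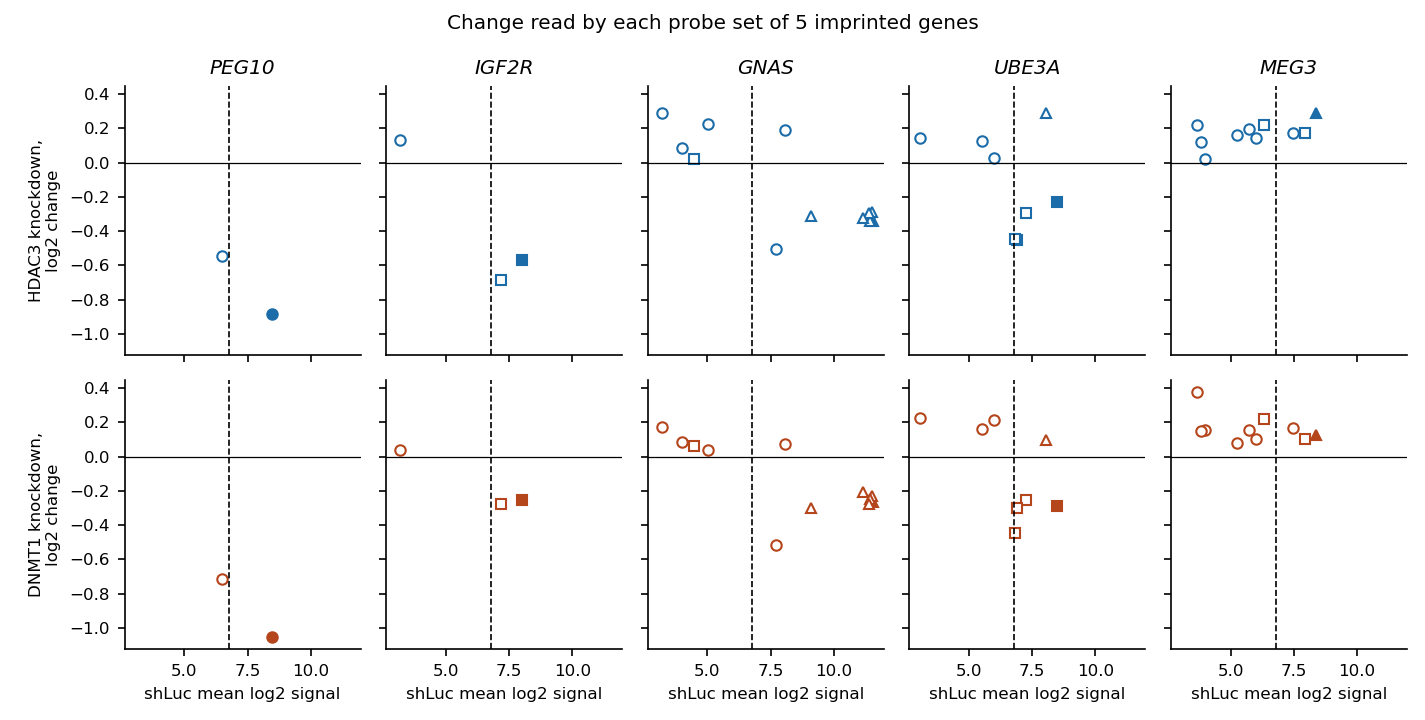
Log2 change in HDAC3 (upper row) and DNMT1 knockdown (lower row) of every probe set of 5 members, against its mean log2 signal in shLuc; filled marks are the probe sets used, circles end in _at, squares in _s_at and triangles in _x_at, and dashed lines mark the background level. The 6 bright GNAS triangles lie between -0.34 and -0.20, and 1 GNAS circle and 1 UBE3A triangle above background lie on the other side of 0.

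UBE3A, on chromosome 15, is a ubiquitin ligase expressed from the maternal copy in neurons and from both copies in most other cells. UBE3A read 8.50 and 8.48 in shLuc, 8.22 and 8.32 in shHDAC3#1, 8.18 and 8.31 in shHDAC3#2, 8.35 and 8.31 in shDNMT1#1, and 8.13 and 8.03 in shDNMT1#2. All 8 knockdown arrays lay below the control arrays by small amounts. UBE3A was called lower in HDAC3 (-0.23 ± 0.08 SE, limma adjusted p = 0.0497) and DNMT1 knockdown (-0.29 ± 0.08, adjusted p = 0.016), and by hairpin only with shDNMT1#2 (-0.41, adjusted p = 0.00261). Without the first shLuc array the adjusted p of the knockdowns was 0.299 and 0.156, and after a further quantile normalization 0.462 and 0.14. Of its 8 probe sets, the second brightest changed the other way (0.29 and 0.10), and 3 dimmer ones near it changed by -0.45 to -0.29 in HDAC3 and -0.45 to -0.25 in DNMT1 knockdown. The brightest one not prone to cross-hybridization, at a mean of 6.08, changed by 0.02 and 0.21, and by 0.47 with shDNMT1#2 (adjusted p = 0.00671).

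BLCAP, a small membrane protein that slows cell growth, has NNAT within one of its introns on chromosome 20. Its log2 signals were 7.62 and 7.29 in shLuc, 7.26 and 7.39 in shHDAC3#1, 7.33 and 7.45 in shHDAC3#2, 7.24 and 7.03 in shDNMT1#1, and 7.08 and 7.17 in shDNMT1#2. The DNMT1 arrays lay below the control and the HDAC3 arrays overlapped it. BLCAP was called lower in DNMT1 knockdown (-0.33 ± 0.10 SE, limma adjusted p = 0.0287). With shDNMT1#1 its change was -0.32 (adjusted p = 0.107) and with shDNMT1#2 -0.33 (adjusted p = 0.0441), nearly the same size on either side of the threshold, and the shDNMT1#2 call was lost in 10 of 18 alternatives. In HDAC3 knockdown the change was -0.10 ± 0.10 (adjusted p = 0.517). The DNMT1 change was -0.16 (adjusted p = 0.563) without the first shLuc array. NNAT itself, a neuronal proteolipid, was at 6.20 in shLuc and was never called.

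Fewer members were called higher than lower. MEG3, a maternally expressed long non-coding RNA of chromosome 14, had log2 signals of 8.31 and 8.42 in shLuc, 8.68 and 8.71 in shHDAC3#1, 8.70 and 8.55 in shHDAC3#2, 8.37 and 8.77 in shDNMT1#1, and 8.41 and 8.44 in shDNMT1#2. The HDAC3 arrays lay above the control, and the DNMT1 arrays overlapped it. MEG3 rose in HDAC3 knockdown (0.29 ± 0.10 SE, limma adjusted p = 0.0388) and with shHDAC3#1 (0.33, adjusted p = 0.0371); in DNMT1 knockdown the change was 0.13 (adjusted p = 0.355). All 10 MEG3 probe sets had a positive change in both knockdowns, from 0.02 to 0.29 in HDAC3 and from 0.08 to 0.38 in DNMT1. The dimmer of them, at 6.31 down to 3.67 in shLuc, lay below background, and the 0.38 came from the dimmest. All genes not above background also had positive median changes, 0.08 and 0.10. The probe set used can cross-hybridize, and the HDAC3 call was lost without such sets and with the mean of all probe sets. Without the first shLuc array the HDAC3 adjusted p was 0.4, and without the second 0.0666. DLK1, its paternally expressed neighbour and a relative of the Notch ligands, was at 5.74 in shLuc, below background, and never called.

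OSBPL5, an oxysterol-binding protein relative of the chromosome 11 cluster, was called only with shHDAC3#1. Its arrays read 8.49 and 8.57 there and 8.06 and 8.40 in shLuc (0.30 ± 0.10 SE, limma adjusted p = 0.0389). L3MBTL1, a reader of methylated histones on chromosome 20, was also called only with that hairpin, at 8.15 and 7.93 against 7.65 and 7.82 in shLuc (0.31 ± 0.10, adjusted p = 0.0359). In the other hairpin groups OSBPL5 lay at 8.36 to 8.46 and L3MBTL1 at 7.82 to 7.97, close to the upper control array. Neither was called without the first shLuc array (adjusted p = 0.509 and 0.314). The mean of the 6 L3MBTL1 probe sets changed by 0.03 with shHDAC3#1 (adjusted p = 0.78), and 2 of the 6 had negative changes, -0.17 and -0.35.

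KCNQ1 and PHLDA2 were above background but not called in any of the 9 comparisons. KCNQ1, a potassium channel whose cluster is silenced on the paternal copy through the antisense RNA KCNQ1OT1, had log2 signals of 8.14 and 8.18 in shLuc, 8.16 to 8.33 in the HDAC3 arrays and 7.87 to 8.13 in the DNMT1 arrays. Its changes were 0.07 ± 0.09 SE in HDAC3 and -0.10 ± 0.09 in DNMT1 knockdown. PHLDA2, which restrains placental growth, read 7.03 and 7.38 in shLuc and 7.26 to 7.59 in the knockdown arrays. Its changes were 0.28 ± 0.11 (limma adjusted p = 0.0813) and 0.25 ± 0.11 (adjusted p = 0.103).

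Among the 17 members not above background, DDC was the one called in a knockdown. DDC makes dopamine and serotonin and lies next to GRB10 on chromosome 7. The DDC signals were 5.76 and 6.04 in shLuc, 6.20 and 6.09 in shHDAC3#1, 6.06 and 6.06 in shHDAC3#2, 6.14 and 6.21 in shDNMT1#1, and 6.42 and 6.29 in shDNMT1#2. All knockdown arrays lay above both control arrays, yet every one stayed below the background level. DDC was called higher in DNMT1 knockdown (0.36 ± 0.10 SE, limma adjusted p = 0.016) and with shDNMT1#2 (0.45, adjusted p = 0.00771). Its DNMT1 change was 0.22 (adjusted p = 0.391) without the first shLuc array, and its second probe set changed by 0.11. GRB10, an adaptor that restrains insulin receptor signalling, was called higher only with shDNMT1#2 (0.34 ± 0.12, adjusted p = 0.0403), at 6.65 and 6.51 against 6.09 and 6.38, and in 5 of 10 fits without 1 array.

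NLRP2, a NOD-like receptor family gene at 6.57 in shLuc, was called against shLuc with no hairpin. It differed between the DNMT1 hairpins, at 6.88 and 6.74 in shDNMT1#1 and 6.44 and 6.45 in shDNMT1#2 (-0.37 ± 0.11 SE, limma adjusted p = 0.0289). The call was lost without the first shDNMT1#1 array or either shDNMT1#2 array. The difference was 0.02 in the probe set used when those that can cross-hybridize were left out. That set was at 2.24 in shLuc, near the bottom of the range, so it could hardly show a difference. With MEST and SGCE, NLRP2 made the 3 members called between these hairpins, where 12% of all genes were called (3.57% higher in shDNMT1#2, 8.39% lower).

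The other 13 members not above background were called in no comparison. They were KCNQ1OT1 at 6.49, NNAT, DLK1, NAP1L5, NDN (5.24), MKRN3, INPP5F, MAGEL2 (3.95), TFPI2, PLAGL1, DIRAS3, PEG3 (3.02) and SNRPN (2.78). NDN, MAGEL2, MKRN3 and SNRPN belong to the paternally expressed genes of the Prader-Willi region of chromosome 15, and PEG3 encodes a zinc finger protein of chromosome 19. The SNRPN value rests on 1 dim probe set, since another 11 that name it carry several symbols and were not used. A second KCNQ1OT1 probe set, at 5.56 in shLuc, changed by 0.41 in HDAC3 and 0.42 in DNMT1 knockdown. The one used changed by 0.22 and 0.19, and the remaining ones by -0.08 to 0.04 and -0.09 to 0.11. The dimmest INPP5F set changed by -0.31 and -0.45, and its others by 0.00 to 0.02 and -0.26 to 0.09. These other sets were picked after their values were seen. At such signals RMA compresses differences, so these values give no evidence that the RNAs were unaltered.

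The machinery that keeps or erases imprints was examined as a list of 25 genes, 23 of them measured. In HDAC3 knockdown 9 fell and none rose; in DNMT1 knockdown 9 fell and 1 rose. These are 39.1% and 43.5% of the list, where 19.2% of all genes were called in HDAC3 (15.3% lower) and 20.2% in DNMT1 knockdown (13.5% lower). Of the 23, 15 were above background in shLuc, against 41.7% of all genes. Among all genes above background, 34.7% were called in HDAC3 and 33.0% in DNMT1 knockdown. The DNMT1 knockdown count includes DNMT1 itself, the target, and no test was made of these shares. The list was chosen with earlier results of these data known. The largest decreases in HDAC3 knockdown were those of UHRF1, the partner that brings DNMT1 to replicated DNA (-1.68 ± 0.10 SE), YY1, a zinc finger factor with sites at PEG3 and GNAS (-0.95 ± 0.11), DNMT1 (-0.92) and the chromatin remodeller HELLS (-0.91 ± 0.11). In DNMT1 knockdown they were those of DNMT1, the target, UHRF1 (-1.61 ± 0.10), YY1 (-0.76 ± 0.11) and ARID4B, a subunit of a histone deacetylase complex (-0.64 ± 0.11). The erasing dioxygenases TET1 (-0.48 and -0.38) and TET2 (-0.44 and -0.44) fell in both, and the histone methyltransferase EHMT2 was the gene called higher (0.27 ± 0.09). The median change of the list was -0.09 and -0.14, beside 0.05 and 0.07 for all genes. ARID4B was not called without the first shLuc array and was at 0.20 without probe sets that can cross-hybridize, and HELLS was not called from the mean of its probe sets. With the hairpin as a random block limma called UHRF1 in HDAC3 knockdown (adjusted p = 0.0148) and UHRF1 (adjusted p = 0.0247) and DNMT1 (adjusted p = 0.00148) in DNMT1 knockdown, and no other gene of the list. In HDAC3 knockdown YY1, HELLS and DNMT1 then had an adjusted p of 0.0739, 0.0736 and 0.0931, and in DNMT1 knockdown YY1 and ARID4B of 0.157 and 0.309.

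A second list held 42 other imprinted genes, 35 of them measured and 12 above background. In HDAC3 knockdown 2 fell and none rose, and in DNMT1 knockdown 2 fell and 5 rose, at median changes of 0.13 and 0.13, beside 0.05 and 0.07 for all genes. The called shares were 5.71%, below the 19.2% of all genes called in HDAC3 knockdown, and 20%, beside 20.2% in DNMT1 knockdown. The retinoblastoma gene RB1 fell in both (-0.63 ± 0.15 SE, limma adjusted p = 0.00332; -0.86 ± 0.15, adjusted p = 0.000187), as did the acetyltransferase NAA60 (-0.43, adjusted p = 0.00184; -0.48, adjusted p = 0.000801). The calcitonin receptor CALCR (0.51 ± 0.12, at 4.49 in shLuc) and the trafficking factor TRAPPC9 (0.35 ± 0.10) led the increases in DNMT1 knockdown. Without the first shLuc array RB1 in HDAC3 knockdown, NAA60 in both, CALCR and TRAPPC9 were not called, and with the mean of its probe sets TRAPPC9 was at -0.06. With the hairpin as a random block limma called 0 of the 35 in either knockdown (1 and 6 at an unadjusted p under 0.05), RB1 then having an adjusted p of 0.445 and 0.276.

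Whether the calls reach beyond these hairpins is limited in 2 ways. When the spread between hairpins was counted as error, through a random block, limma called 0 of 30 members in either knockdown (5 and 6 at an unadjusted p under 0.05), while 73 and 31 of all genes were called. PEG10 then had an adjusted p of 0.0761 in HDAC3 and 0.0541 in DNMT1 knockdown, and SGCE of 0.38 and 0.322. Without the first shLuc array 3 members remained called in HDAC3 knockdown (PEG10, MEST and SGCE) and 2 in DNMT1 knockdown (PEG10 and SGCE). SGCE with shHDAC3#2 also lost its call there (adjusted p = 0.0896). Over the 10 fits that each left out 1 array, PEG10, SGCE and MEST in HDAC3 knockdown and PEG10 and SGCE in DNMT1 knockdown were called each time. In HDAC3 knockdown IGF2R was called in 9, GNAS in 8, ZDBF2 in 4, and UBE3A and MEG3 in 3 each. In DNMT1 knockdown ZDBF2 and DDC were called in 9, UBE3A in 8, BLCAP in 7 and GNAS in 6.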

How the data were processed

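RNA of MM.1S cells was measured on 10 Affymetrix arrays. The authors deposited log2 signals, produced by RMA per the submitters' processing notes. Neither a version nor a single joint run is stated in what was used here, and the values themselves showed the log2 scale. RMA corrects background, quantile-normalizes probes and summarises probe sets, which compresses changes of dim ones. The number of arrays limits the precision, and no count of molecules exists.

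Probe sets (54675) were named by the platform annotation, and 1801 with several symbols were left out. Genes (19775) took their brightest probe set. limma 3.58.1 in R 4.3.3 fitted 5 group means in 1 model (lmFit, eBayes with a variance trend); tests were two-sided, with Benjamini-Hochberg adjustment over all genes and calls under 0.05. The script was tested on simulated data. Within groups the arrays correlated at 0.994 to 0.996 and no replicates were duplicates. Promoter windows and gene order come from RefSeq GRCh38.p14.

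Values by group are given for members above background or called in any comparison, and for the others ranges or single levels. Beyond members, the targets and up to 4 called genes per list with the largest change are named; TET1, TET2 and EHMT2 were chosen after their values were seen. The members and lists were chosen with earlier results of these data known. Alternatives covered the probe set used, probe sets that can cross-hybridize, a dim filter, quantile normalization, centring, the variance trend, the replicate number as a block, the arrays in the fit, a hairpin block (duplicateCorrelation) and leaving out each array. The hairpin block between the knockdowns and the split by the mean over all arrays were added after the data were seen. Background correction and slide cannot be varied from a processed table.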

Additional observations from a re-analysis of the deposited data

Results flagged for a closer look

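The effects of 2 hairpins of 1 target, or of the 2 knockdowns, differed for 4 members by limma's test of the difference itself, adjusted over all genes. MEST differed between the HDAC3 hairpins (shHDAC3#2 minus shHDAC3#1, 0.84, adjusted p = 2.17e-06), between the DNMT1 hairpins (shDNMT1#2 minus shDNMT1#1, 0.40, adjusted p = 0.00795) and between the knockdowns (DNMT1 minus HDAC3, 0.44, adjusted p = 0.000145). SGCE differed between the DNMT1 hairpins by -0.996 (adjusted p = 8.77e-06), and NLRP2 by -0.37 (adjusted p = 0.0289). IGF2R differed between the knockdowns by 0.32 (adjusted p = 0.0153). The differences of MEST between the HDAC3 hairpins and of SGCE between the DNMT1 hairpins were called in all 18 alternatives tried, which cannot include the hairpin as a random block. Those of MEST and IGF2R between the knockdowns were not called with that block (adjusted p = 0.845 and 0.797), an alternative added after the data were seen, and that of MEST was called in the other 18. That of MEST between the DNMT1 hairpins was lost in 1 alternative of 18, without the first shDNMT1#2 array. Those of IGF2R and NLRP2 were called in 6 and 7 of 10 fits that left out 1 array. With 2 arrays in a group, no array can be tested for standing apart within it.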

How the results depend on the processing

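Over 43 calls of members, 783 alternative fits gave 612 calls in the same direction, 159 no longer called and 12 of opposite sign; 9 calls held in every alternative. All 12 changes of sign came with the omission of probe sets prone to cross-hybridization, which puts another, dimmer probe set in place of the one used. IGF2R then changed by 0.077 with shHDAC3#1, 0.19 with shHDAC3#2, 0.13 in HDAC3 knockdown and -0.092 between the knockdowns. GNAS changed by 0.061 with shHDAC3#2, 0.11 with shDNMT1#2, 0.19 in HDAC3 and 0.074 in DNMT1 knockdown. UBE3A changed by 0.47 with shDNMT1#2 (adjusted p = 0.00671), 0.025 in HDAC3 and 0.21 in DNMT1 knockdown, and NLRP2 by 0.024 between the DNMT1 hairpins. Without these probe sets, 26 members and 16788 genes were tested, and the members called were 2 with shHDAC3#2, 5 with shDNMT1#2, 3 in HDAC3 knockdown, 4 in DNMT1 knockdown and 1 between the knockdowns. Averaging all probe sets of a gene gave 2 with shHDAC3#2, 4 with shDNMT1#2, 5 in HDAC3 knockdown and 1 between the knockdowns. A filter on dim probe sets, which tested 12 members and 8215 genes, gave 5 with shDNMT1#2 and 2 between the HDAC3 hairpins. eBayes without the trend gave 5 in HDAC3 knockdown. Between the HDAC3 hairpins, quantile normalization gave 3 and the arrays of the comparison alone 2. The hairpin as a random block (correlation 0.351) gave 0 in both knockdowns (5 and 6 at an unadjusted p under 0.05 in limma) and, in a fit added after the data were seen, 0 between the knockdowns (3 at an unadjusted p under 0.05). The cause of these shifts was not tested.

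A further quantile normalization moved the split of calls. Members were then 4 higher and 5 lower in HDAC3 knockdown (all genes 1955 and 2451, from 784 and 3017), 2 and 5 in DNMT1 knockdown (all genes 1968 and 2295, from 1317 and 2675), 4 and 4 with shHDAC3#1, 4 and 4 with shDNMT1#2 (1 and 6 after centring), 1 and 2 between the HDAC3 hairpins and 2 and 1 between the knockdowns.

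Leaving out each array in turn gave 4 to 10 calls with shHDAC3#1, 1 to 5 with shHDAC3#2, 1 to 6 with shDNMT1#1, 3 to 12 with shDNMT1#2, 3 to 9 in HDAC3 knockdown, 2 to 10 in DNMT1 knockdown, 1 to 2 between the HDAC3 hairpins, 1 to 4 between the DNMT1 hairpins and 1 to 3 between the knockdowns. The lowest count against shLuc came each time without the first shLuc array, reached also without shHDAC3#1 replicate 1 for shHDAC3#1 and without shDNMT1#1 replicate 2 for shDNMT1#1. HDAC3 knockdown had 5 without the first array of shHDAC3#1 or of shHDAC3#2, and without either shDNMT1#2 array. With shDNMT1#2 4 and 5 were called without its own first and second array. The count with shDNMT1#1 was 6 without the second shLuc array and 5 without shDNMT1#1 replicate 1. Between the HDAC3 hairpins it was 2 without either shDNMT1#1 array, between the DNMT1 hairpins 1 without shDNMT1#2 replicate 1, and between the knockdowns 1 without shHDAC3#1 replicate 1 or shHDAC3#2 replicate 2. An array left alone in its group was assumed to vary like the other groups.

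Same-numbered replicates deviated together (correlation over 0.1) in 2 of 10 pairs of groups, from -0.34 to 0.27, so the numbers were not taken to pair samples. With the replicate number as a block, 7, 4, 2 and 6 members were called with shHDAC3#1, shHDAC3#2, shDNMT1#1 and shDNMT1#2, 6 in HDAC3 and 7 in DNMT1 knockdown, 1 and 3 between hairpins of HDAC3 and DNMT1, and 2 between the knockdowns. Other levels taken as background put 12 to 17 members above it.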
